A study of Mus musculus with 3 samples.

Results

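The genes described here were Trp53, which encodes the transcription factor p53, and 9 of its direct target genes, Mdm2, Mdm4, Cdkn1a, Bbc3, Pmaip1, Bax, Ccng1, Zmat3 and Sesn2. They were chosen by name, as textbook members of the p53 response, and found by NCBI Gene ID. All 10 were listed in each of the 3 libraries, out of 16742 genes listed in any library. RNA-seq was performed on 3 libraries, 1 per condition. Control was made from purified lin- bone marrow (BM) cells, which lack mature lineage markers, of healthy wild type C57BL/6 mice. TR1 and TR9 were made from sorted GFP+ BM cells of leukemia mice of genotype TBLR1-RARa on the same C57BL/6 background. Each library pooled 3 mice, labelled 6 to 8 weeks old. The TBLR1-RARα (TR) fusion and GFP came from the same retroviral transcript, and TR1 and TR9 each descend from 1 primary mouse, so each stands for 1 leukemia. The cells were of the third generation of TR mice, passed on through non-irradiated recipients. No vector-transduced cells were among the libraries, and control and TR cells were also isolated in different ways, so the fusion, the viral transduction, the passage and the sort cannot be told apart in these comparisons.

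p53 is held at a low level in unstressed cells by MDM2, a ubiquitin ligase that marks it for degradation, and by MDM4, a related protein that binds and inhibits it. DNA damage, oncogenes and other stresses release p53, which then binds DNA as a tetramer and activates genes for cell cycle arrest, cell death, DNA repair and metabolism. Since MDM2 is itself a p53 target, the pathway holds a negative feedback loop. In blood-forming cells, p53 limits the growth of damaged progenitors. Its activity is controlled mostly at the protein level, which these data did not measure.

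DNA letters that match the p53 motif are shown here for Cdkn1a, which was called between the lines. The cell death genes Bbc3 and Bax, which were not called, are shown for comparison because their windows also hold pairs of this motif. The p53 consensus decamer is 10 bases long, with a core of 4 bases (C, then A or T at each of the next positions, then G) between 3 purines and 3 pyrimidines. It is its own reverse complement, so a search of the printed strand covers both strands. A p53 site joins 2 decamers. Pairs were accepted with exact cores, up to 13 bases between the decamers and up to 3 mismatches elsewhere. Windows of 300 bases, from 250 before to 50 after a RefSeq start site (GRCm38.p6), were searched for 8 of the 10 genes. These 8 genes had 12 windows. Zmat3 had no window at hand, and Pmaip1 was left out of the search. The capitals mark the bases of paired decamers.
Cdkn1a, chr17:29090729-29091028, plus strand, upstream start site: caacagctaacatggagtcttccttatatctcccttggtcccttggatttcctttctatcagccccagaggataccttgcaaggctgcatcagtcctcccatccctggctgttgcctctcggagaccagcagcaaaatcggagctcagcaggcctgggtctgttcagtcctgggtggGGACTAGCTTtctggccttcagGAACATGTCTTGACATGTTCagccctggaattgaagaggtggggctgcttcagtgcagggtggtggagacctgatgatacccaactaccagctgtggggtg
Bbc3, chr7:16309333-16309632, plus strand: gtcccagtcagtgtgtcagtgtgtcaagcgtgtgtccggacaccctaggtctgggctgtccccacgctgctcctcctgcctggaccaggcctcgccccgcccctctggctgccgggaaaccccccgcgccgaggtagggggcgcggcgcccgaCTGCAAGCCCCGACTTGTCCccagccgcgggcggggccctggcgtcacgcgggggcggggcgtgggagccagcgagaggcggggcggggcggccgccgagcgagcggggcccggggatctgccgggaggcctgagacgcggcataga
Bax, chr7:45466849-45467148, minus strand: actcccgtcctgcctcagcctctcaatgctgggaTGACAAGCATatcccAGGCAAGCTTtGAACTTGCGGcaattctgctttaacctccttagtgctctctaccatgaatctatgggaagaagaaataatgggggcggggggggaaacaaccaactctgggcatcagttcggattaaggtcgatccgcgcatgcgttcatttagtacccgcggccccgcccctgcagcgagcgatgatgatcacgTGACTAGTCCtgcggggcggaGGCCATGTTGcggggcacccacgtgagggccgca

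The Cdkn1a window held the pair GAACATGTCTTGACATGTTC, which has no base between the decamers and 1 mismatch and begins 51 bases before the start site. A pair of decamers without a mismatch, with 12 bases between them, overlaps it. Both lie at the upstream start site. The window of the downstream Cdkn1a start site held no accepted pair and no decamer without a mismatch. Only 24 of 32817 windows of all genes (0.073%) held a pair without a mismatch, and 6.72% held any accepted pair. In Bbc3 the pair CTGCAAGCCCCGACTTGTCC, with 3 mismatches, begins 97 bases before the start site. In Bax the pair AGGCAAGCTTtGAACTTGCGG, with 2 mismatches, begins 201 bases before it. Accepted pairs were found in 5 of the 12 windows, from 5 of the 8 genes (Trp53, Mdm4, Cdkn1a, Bbc3 and Bax). Mdm2 and Ccng1 had a single decamer without a mismatch, GAACTTGCCT and GGGCAAGCCT. At least 1 such decamer was found in 5 of the 12 windows (of Trp53, Mdm2, Cdkn1a, Bax and Ccng1), beside 8.36% of all windows. Sesn2 had neither a pair nor such a decamer in its window. A match is a description of these letters, and binding of p53 was not measured.

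Expected counts, the read numbers that RSEM estimates per gene, summed to between 5129662 and 5571409 per library. Levels are given as FPKM, which scale counts by gene length and library total and so allow genes to be compared. The log2 ratio of FPKM was taken between libraries, and the 95% intervals are exact and cover counting error only. A gene was called a DEG where the Poisson false discovery rate did not exceed 0.001 and the log2 ratio was 1 or more in size. Such a call compares 2 libraries and not the conditions, and no difference has a replicate check. Over all genes, TR1 had a median log2 ratio of −0.29 and TR9 one of −0.12, so on library totals a typical gene stood below its control level. With TMM scaling, which sets the bulk of the genes level, these medians were −0.04 and −0.01. Markers of other cells moved strongly between the libraries. The summed level of 10 erythroid markers, with Hbb-bt at 0 in each library and Alas2 at 0 in both TR libraries, was 2171.6 FPKM for control, 39.9 for TR1 and 38.8 for TR9, and that of 7 megakaryocyte markers was 935.2, 3.3 and 2.3. Pf4 was at 0 in both TR libraries, and 9 granulocyte markers summed to 4178.5, 42442.8 and 31960.3 FPKM. For 7 stem and progenitor markers the sums were 240.4, 76.9 and 75.7 FPKM, with Hoxa9 at 0 in both TR libraries. Of these 7 markers, 6 were downregulated and 1 was upregulated in TR1, and 5 were downregulated and 0 upregulated in TR9. For 6 monocyte and macrophage markers the sums were 79.9, 185.8 and 303.5 FPKM, carried by Vcam1 (25.11, 164.41 and 291.13 FPKM). Of these 6 markers, 4 were downregulated in both lines, among them Csf1r, Cx3cr1 and C1qa. In TR1 2 of the 6 were upregulated, and in TR9 1 was. B cell markers (12.3, 3.4 and 5.3 FPKM over 6 genes) and T and NK cell markers (4.4, 2.9 and 3.4 FPKM over 6 genes) were low throughout. The part of this cell makeup in the results on p53 genes was not tested, and fewer cells of a type and less RNA per cell cannot be told apart in these bulk libraries.

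Trp53 itself was the most abundant of the 10 genes in each library and was downregulated in TR1. Control held 1567 expected counts of Trp53, against 759 for TR1 and 796 for TR9. Its level was 160.02 FPKM in control, and the TR1 and TR9 levels were 76.25 and 86.92 FPKM. Both leukemias stood below control, and their count intervals did not overlap that of control. The log2 ratio was −1.07 in TR1 (95% interval −1.19 to −0.94), which was called, and −0.88 in TR9 (−1.0 to −0.76), which was not. This does not make a difference between the lines, since the direct log2 ratio of TR9 against TR1 was 0.19 (0.04 to 0.33) and was not called. The TR1 call also rested on how the libraries were scaled. With TMM scaling, which sets the bulk of the genes level, the Trp53 ratio was −0.82 in TR1 and −0.77 in TR9, and neither was called. Trp53 still ranked high within each library, above 97.5% of the listed genes in control, 93.95% in TR1 and 94.9% in TR9. Over the 3 libraries, the genes whose pair of log2 ratios against control lay nearest to that of Trp53 were Vdac1, Aifm1 and Ecsit, at Euclidean distances of 0.007, 0.015 and 0.016. With so few libraries this likeness is common, and 58 of 8166 genes with at least 50 counts in each library lay within 0.1.

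**Figure D1:**
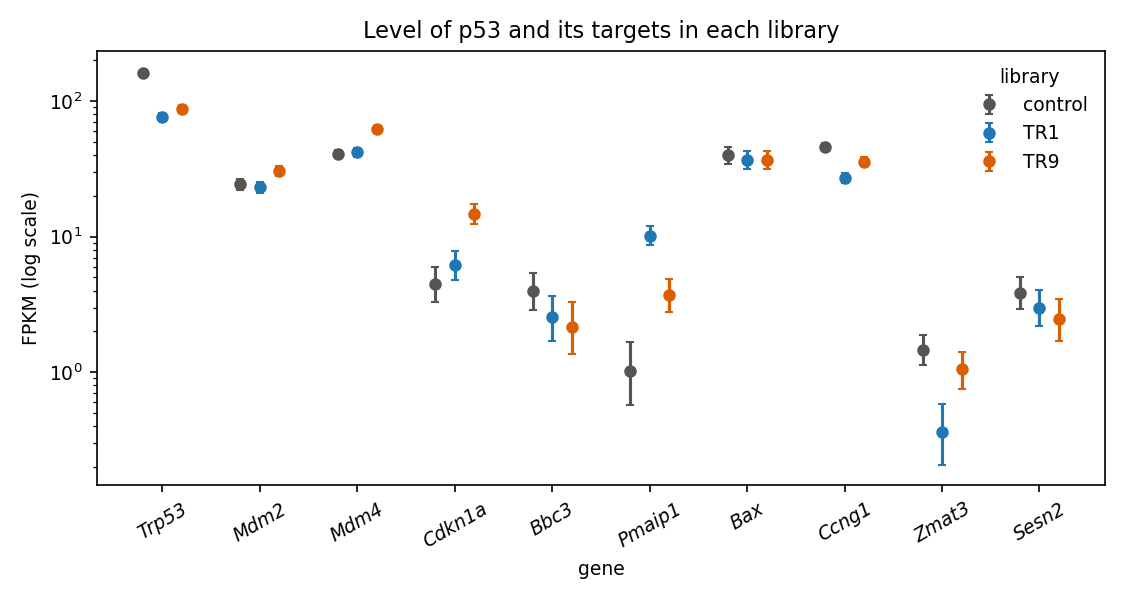
Level of each gene in the 3 libraries, as FPKM on a log axis; points are the single library of each condition and bars are 95% exact Poisson intervals of its count. Trp53 was highest in every library (160.02, 76.25 and 86.92 FPKM), Pmaip1 was lowest in control (1.02), and Zmat3 was lowest in TR1 (0.36) and TR9 (1.05).

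Below Trp53, the order of levels differed between the libraries mainly at Ccng1, Cdkn1a and Pmaip1. In control, Ccng1 (45.93 FPKM), Mdm4 (40.84) and Bax (40.02) formed a group in which each neighbour's interval overlapped the next. Mdm2 followed at 24.31, apart from the genes on either side. Cdkn1a (4.50), Bbc3 (3.98) and Sesn2 (3.87) overlapped at a much lower level, and Zmat3 (1.46) and Pmaip1 (1.02) were lowest and overlapped. In TR1, Ccng1 (27.04 FPKM) stood below Mdm4 (41.75) and Bax (36.99), whose intervals lay above its own. In TR9, Ccng1 (35.71) overlapped Bax (36.79) and lay below Mdm4 (61.72). In TR1, Pmaip1 stood at 10.16 FPKM, above Cdkn1a (6.20), with intervals that did not overlap. In TR9, Cdkn1a stood at 14.72 FPKM, below Mdm2 (30.45) and above Pmaip1 (3.73), and overlapped neither of them.

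Of the 10 genes, 2 were downregulated and 1 was upregulated in TR1, against a background of 13.0% of all tested genes downregulated and 8.09% upregulated. In TR9, 0 were downregulated and 2 were upregulated, against 10.8% and 9.37%. With 10 genes, each of these counts is small, and nothing particular to the list is read from them. With TMM scaling the background in TR1 was 9.78% downregulated and 10.4% upregulated, and with FPKM rescaled to the same sum, as in TPM, 17.9% and 6.52%. Among the 10 genes the median was −0.24 in either line, beside the −0.29 and −0.12 of all genes. Called genes lay on both sides of 0 in TR1.

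**Figure D2:**
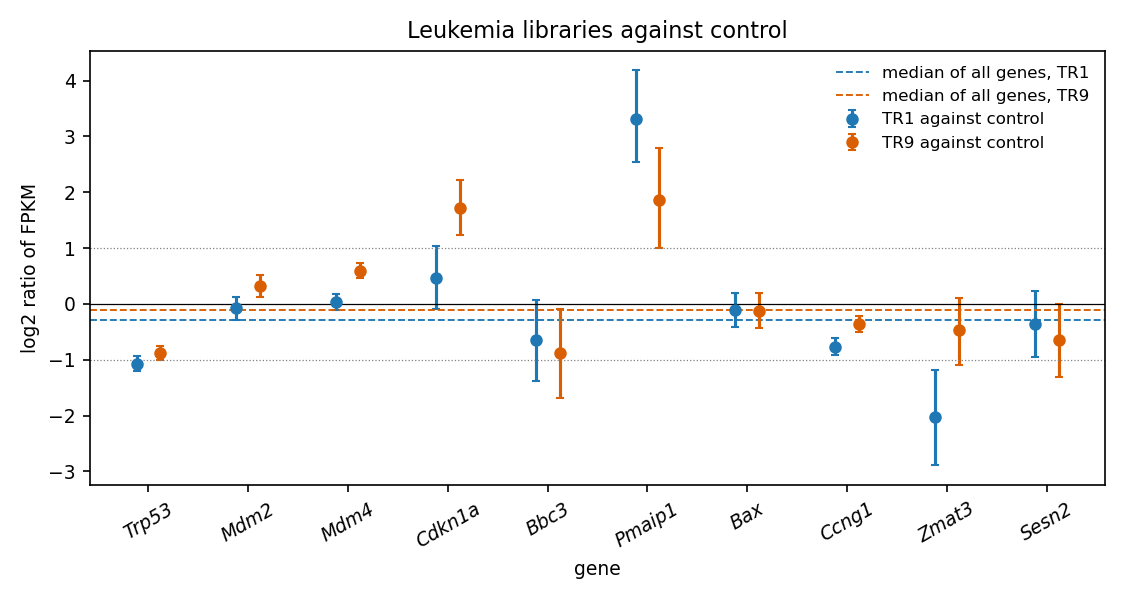
Log2 ratio of FPKM of TR1 and TR9 against control for each gene, with 95% exact conditional intervals of the count ratio (counting error only); dashed lines are the median of all genes and dotted lines the threshold of 1 in either direction. Pmaip1 lies furthest above 0 in TR1 (3.32), Zmat3 furthest below it in TR1 (−2.02), and Cdkn1a is beyond 1 in TR9 (1.71).

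The inhibitors Mdm2 and Mdm4 were called in neither line. Mdm2, the ubiquitin ligase of p53 and its feedback target, had 405.60 expected counts in control. TR1 held 391.44 and TR9 475.47 of them, values that are not whole, as RSEM gives where it divides reads between genes. The log2 ratio of Mdm2 in TR1 was −0.08 (95% interval −0.28 to 0.13), and TR9 gave 0.32 (0.13 to 0.52). Mdm4, which binds the activation domain of p53, had 787, 819 and 1113 counts, and levels of 40.84, 41.75 and 61.72 FPKM. TR1 gave Mdm4 a log2 ratio of 0.03 (−0.11 to 0.18) and TR9 one of 0.60 (0.46 to 0.73), and TR9 stood above TR1 by 0.56 (0.43 to 0.69). None of these passed the threshold of 1. In TR1 the sign of the small Mdm2 ratio turned with scaling (0.17 with TMM), as did that of Mdm4 (−0.19 with TPM scaling).

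The cell cycle inhibitor Cdkn1a was upregulated in TR9. Cdkn1a encodes p21, which stops cyclin-dependent kinases and is the classical arrest gene of p53. The control, TR1 and TR9 libraries held 47, 66 and 144 expected counts of Cdkn1a, and its levels were 4.50, 6.20 and 14.72 FPKM. TR9 was high, with a count interval above those of the other libraries, while the intervals of control and TR1 overlapped. The log2 ratio was 1.71 in TR9 (95% interval 1.23 to 2.22), a fold of 3.27, and 0.46 in TR1 (−0.09 to 1.04), which was not called. Compared directly, Cdkn1a was upregulated in TR9 against TR1 by 1.25 (0.82 to 1.69), and it was 1 of 2 members called in that comparison. Among all genes, 4.34% were called higher and 2.31% lower in TR9 than in TR1. Of the 10 genes, 1 was called in each direction there. Among the 8 genes searched, which leave out the other called member, Pmaip1, Cdkn1a is also the one whose upstream window holds the decamer pair without a mismatch shown above. Whether that pair bears on the Cdkn1a ratio was not tested.

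Of the cell death genes, Pmaip1 was upregulated in both lines, while Bbc3 and Bax were not called in either. Pmaip1 encodes NOXA and Bbc3 encodes PUMA, BH3-only proteins that disable the survival proteins of the BCL2 family, and Bax encodes the pore-forming effector at the mitochondrion. For Pmaip1, control held 14.97 expected counts, TR1 151 and TR9 51, with levels of 1.02, 10.16 and 3.73 FPKM. Control was low, TR9 intermediate and TR1 high, and no 2 of the 3 intervals overlapped. The log2 ratio was 3.32 in TR1 (95% interval 2.54 to 4.18), a fold of 9.96, and 1.87 in TR9 (1.01 to 2.80). Only 6.07% of the genes tested in TR1 had a higher ratio. Between the leukemias, Pmaip1 was downregulated in TR9 against TR1, by a log2 ratio of −1.45 (−1.93 to −0.98). Cdkn1a and Pmaip1 were thus the 2 members called between the lines, with Cdkn1a higher in TR9 and Pmaip1 higher in TR1. Of the 8 members not called there, 5 had a counting interval above 0, among them Zmat3 with a ratio of 1.54.

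Bbc3 counts were few, at 43.04 for control, 28 for TR1 and 22 for TR9, and its ratios are imprecise. TR1 gave a log2 ratio of −0.65 (95% interval −1.38 to 0.08) and TR9 one of −0.88 (−1.68 to −0.10), and neither was called. Bax had 186, 175 and 160 counts and levels of 40.02, 36.99 and 36.79 FPKM, so all 3 libraries overlapped. The log2 ratio of Bax against control was −0.11 for TR1 (−0.42 to 0.20) and −0.12 for TR9 (−0.43 to 0.19), intervals that do not reach the threshold of 1 in either direction. In TR1 its sign turned with scaling (0.14 with TMM). The decamer pairs of the Bbc3 and Bax windows stood before genes that were not called, and a link of pairs to ratios was not tested.

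Of the remaining targets, Zmat3 in TR1 was the 1 that was called. Ccng1 encodes cyclin G1, which acts in the feedback on p53 through MDM2. Control held 888 expected counts of Ccng1, TR1 532 and TR9 646, and both leukemias stood below control. Neither log2 ratio passed the threshold, with −0.76 for TR1 (95% interval −0.92 to −0.60) and −0.36 for TR9 (−0.51 to −0.21). Zmat3, which encodes a zinc finger protein that binds RNA, had 63.25, 15.82 and 42.36 counts, not whole in any library. Zmat3 was downregulated in TR1, by a log2 ratio of −2.02 (−2.89 to −1.19), and was not called in TR9, at −0.48 (−1.09 to 0.10). Its level in TR1, 0.36 FPKM, was the lowest of any member, and with a pseudocount of 1 FPKM its ratio was −0.86 and not called. Zmat3 was 1.54 higher in TR9 than in TR1 (0.65 to 2.44) on the log2 scale without being called. Sesn2 encodes sestrin 2, which restrains mTORC1 under stress. It had 57, 45 and 34 counts, and the log2 ratios of −0.37 for TR1 (−0.96 to 0.23) and −0.65 for TR9 (−1.31 to −0.01) were not called.

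All of these calls rested on counting error alone. When edgeR's exact test was run at a coefficient of variation of 0.2, assumed and not measured, Pmaip1 in TR1 was the 1 call left among the 10 genes, and 0 were left in TR9 and 0 between TR9 and TR1.

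Because a ratio of counts of 2 genes inside a library does not depend on scaling, each target was also set against Trp53 of the same library. Against control, 7 of the 9 targets were higher relative to Trp53 in TR1 with an interval above 0, and 6 of 9 in TR9. Among all genes, 75.35% in TR1 and 74.4% in TR9 had a log2 ratio above that of Trp53, counted without regard to intervals, so nothing particular to the targets is read from these counts. The Trp53 counts are shared by all of these ratios, so a lower Trp53 moves every target the same way. Mdm2 counts were 25.9% of Trp53 counts in control, against 51.5% for TR1 and 59.7% for TR9, an increase on the log2 scale of 0.99 in TR1 (95% exact interval of the odds ratio 0.75 to 1.23) and 1.20 in TR9 (0.97 to 1.44). Mdm4 counts stood at 50.2%, 107.91% and 139.82% of those of Trp53 in the same order of libraries, an increase of 1.10 (0.91 to 1.29) and 1.48 (1.29 to 1.66). Both inhibitors thus stood higher relative to Trp53 in both lines. Bax was higher by 0.96 in TR1 (0.62 to 1.29) and 0.76 in TR9 (0.42 to 1.10). Ccng1 was higher by 0.31 (0.10 to 0.51) and 0.52 (0.32 to 0.71), although its own ratio to control was below 0 in both lines.

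In both lines this measure was largest for Pmaip1 and Cdkn1a. Pmaip1 counts rose from 0.96% of Trp53 counts in control to 19.9% in TR1 and 6.41% in TR9, by 4.38 (3.60 to 5.26) and 2.74 (1.88 to 3.69). Cdkn1a counts were 3.0%, 8.70% and 18.1% of them, an increase of 1.53 (0.96 to 2.12) in TR1 and 2.59 (2.09 to 3.12) in TR9. Zmat3 was the only target lower relative to Trp53 in TR1, by −0.93 (−1.83 to −0.11), and its interval in TR9 spanned 0 (−0.22 to 0.99). Bbc3 spanned 0 in TR1 (−0.33 to 1.16) and in TR9 (−0.81 to 0.80). Between the leukemias, Cdkn1a was higher in TR9 by 1.06 (0.60 to 1.52), Mdm4 by 0.37 (0.18 to 0.57) and Zmat3 by 1.32 (0.45 to 2.27), and Pmaip1 was lower by −1.63 (−2.14 to −1.14). Mdm4 levels were 1.68 times those of Mdm2 in control, 1.81 in TR1 and 2.03 in TR9, a pair chosen after the values were seen. On the log2 scale the counts of Mdm4 relative to Mdm2 changed by 0.11 in TR1 (−0.14 to 0.36) and by 0.27 in TR9 (0.04 to 0.51).

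**Figure D3:**
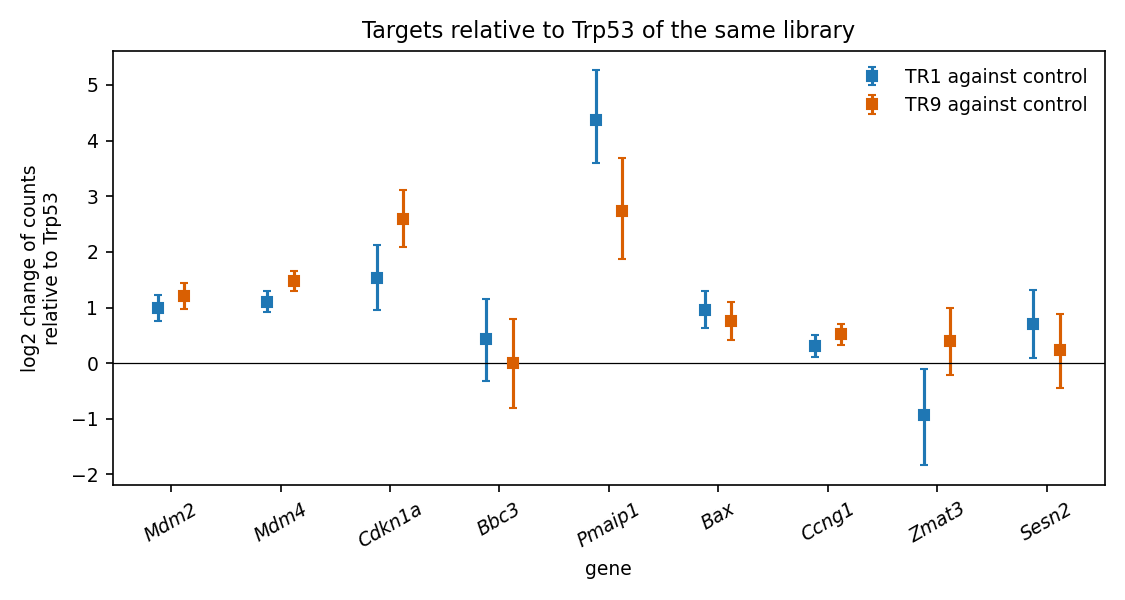
Change of each target's count relative to the Trp53 count of the same library, TR1 and TR9 against control, on the log2 scale, with 95% exact intervals of the odds ratio (counting error only). Pmaip1 is highest in TR1 (4.38), Cdkn1a (2.59) and Pmaip1 (2.74) are highest in TR9, and Zmat3 in TR1 (−0.93) is the point below 0 whose interval does not reach it.

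A wider list of 44 other p53 targets, of which 43 were listed in a library, also held calls in both directions. In TR1, 4 of 43 (9.30%) were downregulated and 7 (16.3%) upregulated, beside 13.0% and 8.09% of all genes. In TR9 the counts were 3 (6.98%) and 9 (20.9%), beside 10.8% and 9.37%. Their median log2 ratios were −0.34 (TR1) and −0.28 (TR9), beside −0.29 and −0.12 for all genes. Between the leukemias 1 (2.33%) was called lower and 2 (4.65%) higher in TR9, beside 2.31% and 4.34% of all genes, and with TMM scaling this split was 3 and 1. With TPM scaling the TR1 split was 9 downregulated and 6 upregulated. Most of the upward calls were of cell death targets, of which 5 of 14 (35.7%) were upregulated in both lines, beside the 8.09% (TR1) and 9.37% (TR9) of all genes. These were Fas, Perp, Dram1, Trp53inp1 and Apaf1, and with TPM scaling Apaf1 lost its call in both lines. The 14 genes had a median of 0.22 in TR1, which turned to −0.01 with TPM scaling, and of 0.36 in TR9. With edgeR's exact test at the same assumed variation, 4 of the 14 were called upward in TR1 and 3 in TR9. Bid was downregulated in TR9, and Pidd1 in TR1, where its call was lost with TMM scaling (−0.90).

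Fas, the death receptor, had 2, 69 and 77 expected counts in the control, TR1 and TR9 libraries. Its log2 ratio was 5.32 for TR1 (95% interval 3.18 to 8.16) and 5.42 for TR9 (3.46 to 8.44). Perp, a membrane protein of p53-dependent death and of cell junctions, had 13, 300 and 71 counts, and was downregulated in TR9 against TR1 by −1.96 (−2.35 to −1.58). Perp thus had the same order of libraries as Pmaip1, with control lowest and TR1 highest. With 3 libraries few orders are possible, and nothing is read from this likeness. Dram1, which acts in autophagy, had 119, 623 and 674 counts, and its log2 ratios were 2.36 (TR1) and 2.60 (TR9).

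Targets for arrest, repair and metabolism were called in both directions, as were all genes. Of all genes, 13.0% were downregulated and 8.09% upregulated in TR1, and 10.8% and 9.37% in TR9. The medians of all genes were −0.29 and −0.12. With 8 to 12 genes per list, nothing particular to these targets is read from the counts. Of 9 listed cell cycle targets, 1 was downregulated and 0 upregulated in TR1, and 1 was downregulated and 2 upregulated in TR9, with medians of −0.50 and −0.28. Of 8 DNA repair and nucleotide supply genes, 1 was downregulated in each line and Xpc was upregulated in TR9, with medians of −0.64 and −0.50. Xpc, which recognizes damage in nucleotide excision repair, had 337, 551 and 1079 expected counts, and was upregulated in TR9 against TR1 by 1.09 (95% interval 0.94 to 1.24). With TMM scaling that Xpc ratio was 0.96 and not called. Xpc was highest in TR9, as was Cdkn1a, and with so few libraries nothing is read from this likeness. Of 12 metabolism and feedback targets, 2 were upregulated and 1 downregulated in TR1, and 1 was upregulated in TR9, with a median of −0.35 in each. Tigar, which lowers glycolytic flux, was upregulated in both lines (47, 145.01 and 103 counts), with log2 ratios of 1.60 and 1.23. Pml, which encodes the scaffold of nuclear bodies and is the usual fusion partner of RARα in acute promyelocytic leukemia, had 965, 392 and 1128 counts. It was downregulated in TR1 by −1.32 (−1.49 to −1.15) and upregulated in TR9 against TR1 by 1.63 (1.48 to 1.81).

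**Figure D4:**
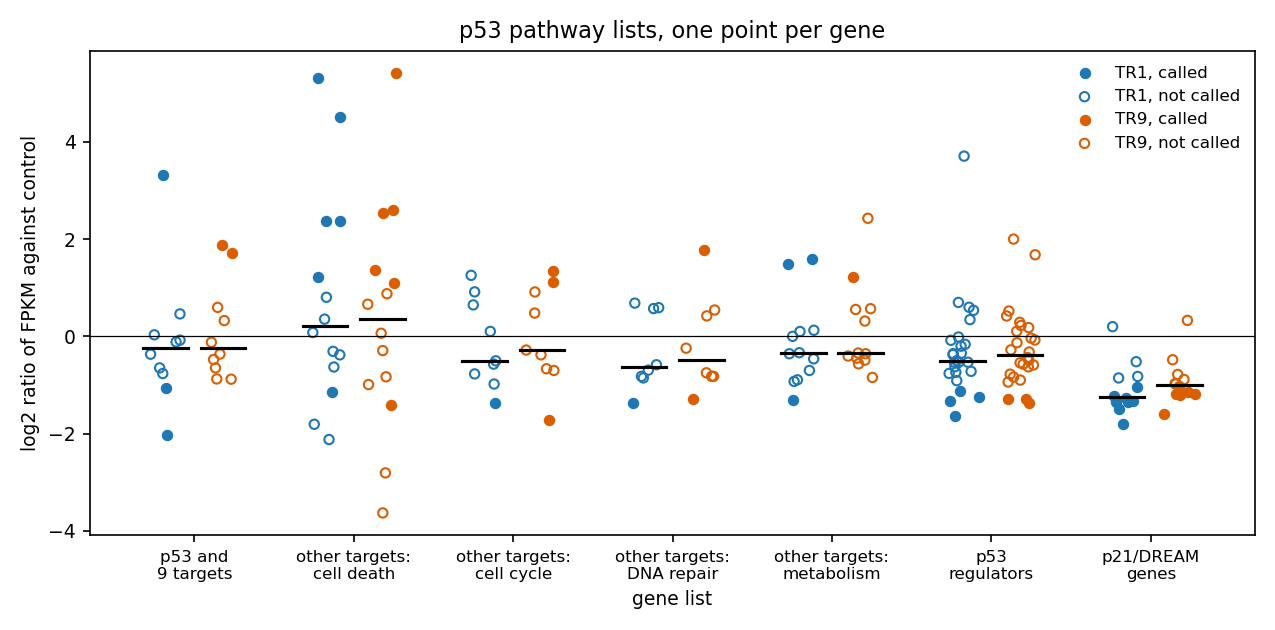
Log2 ratio of FPKM against control for each gene of 7 lists, TR1 in blue and TR9 in orange, filled where called and open where not; black bars are list medians. Cell death targets have 5 filled points above 0 in each line, and the p21/DREAM genes lie mostly below 0, with medians of −1.24 (TR1) and −1.0 (TR9).

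Of the genes that act on p53, 0 were upregulated in either line, beside 8.09% (TR1) and 9.37% (TR9) of all genes. With so few genes, nothing is read from this. By fold alone, 1 was upregulated in TR1 and 2 in TR9. Of 25 regulators tested in TR1, 4 were downregulated, and of 26 in TR9, 3 were, with medians of −0.50 and −0.38. These shares (16.0% and 11.5%) lie near the 13.0% and 10.8% of all genes called lower, and the medians of all genes were −0.29 and −0.12. With TMM scaling Usp10 and Hipk2 lost their calls in TR1, at −0.999 and −0.878, and with edgeR's exact test 0 were called in either line. The 3 downregulated in both were Chek1, the S phase checkpoint kinase (338.02, 110.01 and 128.92 expected counts), Usp10, a deubiquitinase of p53 (756, 324 and 273), and Hipk2, a kinase of p53 (310, 146 and 123). Their log2 ratios were −1.65, −1.25 and −1.13 in TR1 and −1.30, −1.37 and −1.28 in TR9. Chosen after its values were seen, Cdkn2a, whose Arf product inhibits MDM2, had 1, 13 and 3 counts. The log2 ratio of Cdkn2a in TR1 was 3.71 with a wide interval (0.94 to 9.09), and it was not called. Atm, the kinase that signals DNA breaks, had log2 ratios of −0.62 (TR1) and −0.57 (TR9) and was not called.

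Of 12 cell division genes that p53 lowers through p21 and the DREAM repressor complex, 8 (66.7%) were downregulated in TR1 and 6 (50%) in TR9, beside 13.0% and 10.8% of all genes. The 6 of TR9 were also called in TR1. Their median log2 ratios were −1.24 (TR1) and −1.0 (TR9), and with TMM scaling 6 and 5 genes were downregulated. With edgeR's exact test 1 gene was called in TR1 and 0 in TR9. Ccna2, cyclin A2, had 2321, 679 and 722 expected counts, Top2a, a topoisomerase of dividing cells, had 4901, 1764 and 2023, and Birc5, survivin, had 655.14, 257.83 and 291.50. These genes are general markers of dividing cells, and the erythroid and megakaryocyte markers given above moved in the same direction, whose part in this result was not tested. The summed level of the 12 genes was 1025.6 FPKM in control, 428.1 in TR1 and 495.2 in TR9.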

How the data were processed

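RNA-seq data of 3 libraries (control, TR1 and TR9) were used, 1 per condition and each of 3 pooled mice. After read filtering, the authors aligned with BWA and Bowtie (genome build mm9, per the submitters' processing notes) and used RSEM for quantification. They deposited the expected count of each gene without normalization and, beside it, the FPKM scaled for gene length and library total. The deposited gene length was used only as listed. Software versions and the annotation are not given in the sources used here. Genes that a library's file did not list entered as 0.

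Gene IDs were matched to RefSeq GRCm38.p6, a build other than that of the files, for names and promoter windows (16698 of 16742 matched). Rounded expected counts entered an exact Poisson test conditional on their sum, adjusted by Benjamini-Hochberg over all genes that either library listed. The thresholds of the paper's methods were a false discovery rate of 0.001 and a log2 ratio of 1 in size. FPKM under 0.01 were set to 0.01. Intervals are Clopper-Pearson for ratios, Poisson for counts and Fisher's conditional for odds ratios, at 95%. The interval of a log2 ratio used library totals. The Poisson calls and the ratio intervals were tested on counts simulated with Poisson error only, which holds no variation between mice. Python 3.11.15, scipy 1.17.1, edgeR 4.0.16 and DESeq2 1.42.0 in R 4.3.3 (DESeq2 for size factors only) were used.

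Members, lists and tests were chosen with earlier results of these data known. Genes named beside the 10 were, per list, up to 3 DEGs of both lines with 1 direction, ranked by mean absolute log2 ratio, up to 2 DEGs between TR9 and TR1 furthest apart, and the 3 genes nearest to Trp53. Trp53inp1, Apaf1, Bid, Pidd1, Atm and Cdkn2a were chosen with their values in view. Alternatives tried were a pseudocount of 1 FPKM, a floor of 0.001 FPKM, TMM, the median of ratios, the upper quartile, TPM scaling, totals without the 100 most abundant genes, a minimum of 10 expected counts or 1 FPKM, a false discovery rate of 0.05, a log2 ratio of 2, fold alone, and edgeR's exact test with an assumed coefficient of variation of 0.2. The files give 1 library per condition, so p-values are not printed.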

Additional observations from a re-analysis of the deposited data

Results flagged for a closer look

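Of the 10 genes, 2 were called in the direct comparison of the TR libraries. Cdkn1a was higher in TR9 than in TR1 by a log2 ratio of 1.25, with 66 expected counts in TR1 and 144 in TR9, and it ranged from 1.12 to 1.36 over the alternatives. Pmaip1 was lower in TR9 than in TR1, by −1.45, with 151 and 51 counts, and ranged from −1.58 to −1.24. With 1 library per line, variation between mice of a line was not measured.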

How the results depend on the processing

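No paired analysis was possible because each condition had 1 library. Calls were recomputed under 13 alternatives. The direction of the 7 called ratios of the 10 genes could not turn under these alternatives, so it was not checked by them. The largest shift by rescaling was −0.249 (TMM, TR1 against control), smaller in size than the threshold of 1. The other alternatives cannot change a sign. Pmaip1 in TR1 stayed called in all 13, between 2.47 and 3.57. Trp53 in TR1 lost its call in 6, with ratios of −0.82 with TMM, −0.83 with the median of ratios, −0.86 with the upper quartile and −0.94 without the 100 most abundant genes, and also at a threshold of 2 and with edgeR's exact test. In TR1, 1 of the 10 genes was called with edgeR's exact test, against 3. With a log2 ratio of at least 2, 0 of the 10 were called in TR9 and 0 between TR9 and TR1, and edgeR's exact test also called 0 in each, against 2 and 2. Of the 43 other targets, 4 were called in TR1 with a log2 ratio of at least 2 and 4 with edgeR's exact test, against 11. In TR9 these were 3 and 4, against 12, and between TR9 and TR1 they were 0 and 0, against 3, whereas fold alone gave 9. Uncalled Zmat3 between TR9 and TR1 was called in 5 alternatives. At this depth, Bbc3, Zmat3, Pmaip1, Sesn2 and Cdkn1a, with counts from about 15 to 151, carry wide intervals. Assumed variation, not measured variation, entered edgeR's test, so the spread between mice is unknown.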
